A study of Mus musculus with 5 samples.

Results

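The insulin-like growth factor (IGF) axis was followed through 10 genes of a mouse prostate tumor RNA-seq series: the ligands *Igf1* and *Igf2*, the receptors *Igf1r* and *Igf2r*, and the binding proteins *Igfbp2*, *Igfbp3*, *Igfbp4*, *Igfbp5*, *Igfbp6* and *Igfbp7*. The genes were taken by symbol from the deposited count table, where they made up 10 of 24527 rows. Of the 10 genes, 9 passed the filter on low counts, at least 2 samples with a CPM above 1, and *Igf2* did not. CPM is counts per 1e6 of the library total, and the values printed use library totals scaled by TMM normalization.

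All 5 mice were TripleTg animals, which carry a human HGF transgene (hHGFtg), a heterozygous human MET transgene in the H11 locus that Cre recombination switches on under the CAG promoter (H11 hMET/+), and a Ctnnb1 L(Ex3)/+ allele whose recombination gives a stabilized β-catenin. The Cre in every mouse came from PB Cre4, in which the androgen-responsive probasin promoter drives recombination in prostate epithelium, so stromal, endothelial and immune cells of the same tissue are not its intended targets. Tumor tissue from 3 mice castrated at 4 months of age and from 2 intact mice was compared, all analyzed at 8 months, which asks how the tumors differ when testicular androgen is removed. The libraries held 28015507 (castrated replicate 1), 18951782 (castrated replicate 2), 20492061 (castrated replicate 3), 21560355 (intact replicate 1) and 22853501 (intact replicate 2) counts. In every sentence with 5 values the castrated replicates 1, 2 and 3 come first and the intact replicates 1 and 2 follow.

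IGF1 and IGF2 are secreted peptides that signal growth and survival through the IGF1 receptor, a tyrosine kinase. The IGF2 receptor, also the cation-independent mannose 6-phosphate receptor, takes up IGF2 and carries it to lysosomes. The binding proteins hold most extracellular IGF, and with their proteases they set how much ligand reaches the receptor. In the prostate IGF1 is regarded mainly as a stromal and circulating factor that acts on the epithelium.

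Libraries stood apart from each other before any IGF gene was considered. The summed CPM of 7 prostate secretory markers was 23.09, 6.733, 6.165, 5.224 and 2157. The most abundant of them, *Tgm4*, a transglutaminase of prostatic secretion, was at 0.4172, 0.05344, 0.04855, 0.2233 and 1342 CPM. Among the defining secretory genes, *Pbsn* had 13, 0, 5, 0 and 112 counts, and *Msmb* had 0 counts in all 5 libraries, which allows up to 3 counts in each. The 2 intact tumors were thus unlike each other in secretory transcripts, and *Tgm4* and *Pbsn* were highest in intact replicate 2, while *Msmb* was at 0 there too. Epithelial markers, of which *Krt8* had the highest sum over the 5 libraries, summed to 3224, 2997, 3842, 4505 and 3174 CPM. Castrated replicate 3 carried transcripts of liver, with *Alb*, the gene of serum albumin, at 48.43, 1.924, 13790, 11.52 and 0.6947 CPM. Because of these libraries, the fold changes of the IGF axis genes and of the main pathway genes named are given below with and without a library where leaving it out turns or ends the result.

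*Igf1* was higher in castrated tumors. Its level was 168.8, 307.1 and 228.4 CPM in the castrated samples against 42.69 and 74.43 CPM in the intact samples. All 3 castrated samples lay above both intact samples, and the group means were 235 ± 69.3 (SD, n = 3) and 58.6 ± 22.4 (SD, n = 2) CPM. The log2 fold change was 2.0 (SE 0.39), a 4.01-fold difference, with an unadjusted p of 0.00311 in edgeR's quasi-likelihood test. After Benjamini-Hochberg adjustment over all 14612 genes tested, edgeR's quasi-likelihood test gave *Igf1* an adjusted p of 0.289, which equals the smallest adjusted p that any gene reached. By p, *Igf1* ranked 151 among the 14612 genes.

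No gene of the series passed an adjusted p under 0.05 with an absolute log2 fold change above 1 in edgeR's quasi-likelihood test, that is, 0 genes or 0% of those tested. The study itself reported differentially expressed genes between castrated and intact TripleTg tumors at these thresholds, from its own edgeR fit. Before adjustment, 1120 genes had a p under 0.05 with that fold and were higher in castrated tumors, 7.66% of those tested, and 476 were lower, 3.26%. Of the 9 tested IGF axis genes, *Igf1* alone was among them, which makes 1 higher and 0 lower. Every castrated sample lay above both intact samples for 2487 genes (17.0%) and below both for 2348 genes (16.1%). Among the IGF axis genes this held for 1 of 9 above and 0 below, shares no larger than those over all genes tested.

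The call for *Igf1* depended on the tool. DESeq2 gave it an adjusted p of 0.000283 and edgeR's likelihood ratio test 0.0108, with log2 fold changes of 2.01 and 2.0, while limma voom and edgeR's quasi-likelihood test called 0 IGF axis genes. Among alternatives with replicates in both groups, the adjusted p of *Igf1* ranged from 0.000283 (DESeq2) to 0.681. The highest came from edgeR's quasi-likelihood test with the replicate number as a block. DESeq2 called 989 genes in all and the likelihood ratio test 369. The size of the *Igf1* difference held up better than its p. The log2 fold change of *Igf1* stayed between 1.51 and 2.46 over 15 alternatives, 5 of which left out 1 library each.

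**Figure D1:**
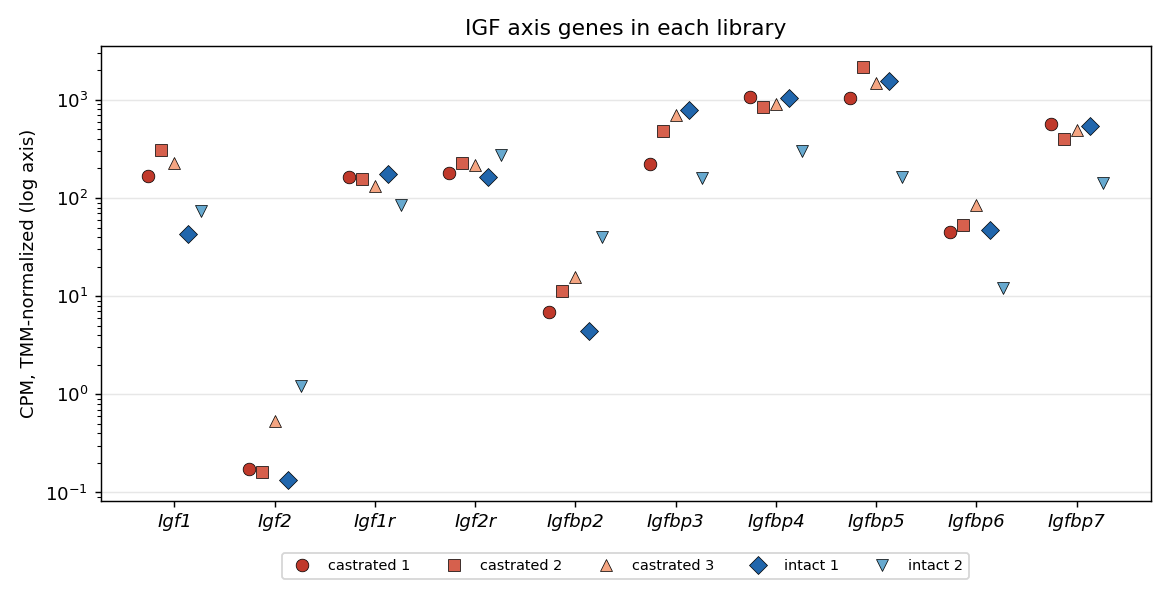
Level of each of the 10 IGF axis genes in each library, in TMM-normalized CPM on a log axis, with 1 marker per library. For *Igf1* all 3 castrated samples lie above both intact samples (lowest castrated 168.8, highest intact 74.43 CPM), while for *Igfbp3* to *Igfbp7* intact replicate 2 lies below the other 4 libraries.

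*Igf2*, the fetal growth ligand, was nearly silent. Its counts were 5, 3, 11, 3 and 26, which is 0.1738, 0.1603, 0.534, 0.134 and 1.204 CPM. Intact replicate 2 held the most and intact replicate 1 the least, the groups overlapped, and no fold change was fitted. *Igf2* overlaps the antisense gene *Igf2os* in the annotation, and whether the counting used strand is not given in the sources used here, so reads of the pair may be mixed.

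The receptors differed little between the groups. *Igf1r*, the signaling receptor, was at 163.3, 157.3, 132.1, 174.5 and 84.48 CPM. The intact samples were the highest and the lowest of the 5, and the log2 fold change was 0.22 (SE 0.34; adjusted p = 0.786 in edgeR's quasi-likelihood test). *Igf2r*, the clearance receptor, was at 178.0, 225.0, 215.3, 163.2 and 277.4 CPM, again with the intact samples at both ends. Its log2 fold change was -0.10 (SE 0.29; adjusted p = 0.898 in edgeR's quasi-likelihood test). The sign of both receptors turned with intact replicate 2, without which *Igf1r* was at -0.21 and *Igf2r* at 0.34 on the log2 scale. Without intact replicate 1, *Igf1r* was at 0.86 and *Igf2r* at -0.41. Without castrated replicate 1, *Igf2r* was at 0.0037. *Igf2r* lies within mouse chr17:12682406-12769706 (mm10), where the antisense noncoding gene *Airn* overlaps its start, and *Airn* was at 6.849, 8.604, 8.835, 9.287 and 113.9 CPM. Both rows were highest in intact replicate 2, but since the use of strand in counting is not given, reads of this pair may be mixed as well.

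*Igfbp4*, *Igfbp7*, *Igfbp5* and *Igfbp3* had the highest mean TPM (transcripts per 1e6, from counts and the gene length in the table) of the axis in both groups, although in intact replicate 2 *Igfbp5* (52.55 TPM) lay below *Igf2r* (58.09) and *Igfbp2* (53.03). *Igfbp4*, whose product restrains IGF action, was at 1082, 843.8, 910.8, 1036 and 300.7 CPM. *Igfbp7*, which codes for a matrix-associated protein with low affinity for IGFs, was at 572.8, 396.6, 496.0, 547.4 and 141.3 CPM. In both genes intact replicate 1 lay inside the castrated range and intact replicate 2 far below it, so the groups overlapped. The log2 fold changes were 0.50 (SE 0.56) for *Igfbp4* and 0.50 (SE 0.58) for *Igfbp7*, with adjusted p-values of 0.704 and 0.713 in edgeR's quasi-likelihood test. Without intact replicate 2 they were -0.13 and -0.16, and without intact replicate 1 they were 1.67 and 1.81.

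*Igfbp5*, whose product binds matrix and is known as a castration-responsive gene of the prostate, was at 1048, 2182, 1494, 1555 and 165.3 CPM. Intact replicate 1 was again inside the castrated range, and intact replicate 2 was lower than it by a factor of 9.41. The log2 fold change of *Igfbp5* was 0.87 (SE 0.95; adjusted p = 0.694 in edgeR's quasi-likelihood test), and it was 3.27 without intact replicate 1 and 0.018 without intact replicate 2. *Igfbp3*, the main IGF carrier of serum, was at 221.4, 478.3, 695.7, 793.0 and 161.1 CPM. Its intact samples bracketed all castrated samples, and the log2 fold change was -0.04 (SE 0.78; adjusted p = 0.986 in edgeR's quasi-likelihood test). That near-zero value was 1.55 without intact replicate 1 and 0.29 without castrated replicate 1, but -0.77 without intact replicate 2 and -0.45 without castrated replicate 3.

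*Igfbp6*, which prefers IGF2 over IGF1, was at 45.44, 53.23, 84.23, 47.37 and 12.04 CPM. Castrated replicate 3 was the highest, and castrated replicate 1 lay just under intact replicate 1. The log2 fold change of 1.04 (SE 0.63) had an adjusted p of 0.477 in edgeR's quasi-likelihood test, and it was 0.36 without intact replicate 2 and 2.36 without intact replicate 1. *Igfbp2*, a binding protein often raised in prostate cancer, went the other way in the libraries at 6.954, 11.33, 15.68, 4.42 and 40.2 CPM. It was highest in intact replicate 2 and lowest in intact replicate 1. Its log2 fold change was -0.98 (SE 0.89; adjusted p = 0.636 in edgeR's quasi-likelihood test), and without intact replicate 2 it was 1.36.

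Of the 9 tested genes, 6 had a log2 fold change above 0 and 3 below, with a median of 0.50 beside a median of -0.03 over all genes tested, of which 6992 were above 0 and 7620 below. The median of the 9 was 1.67 without intact replicate 1 and 0.018 without intact replicate 2. With intact replicate 2 as the only intact sample, 6 genes passed the unadjusted p and the fold in edgeR's quasi-likelihood test. They were *Igf1*, *Igfbp4*, *Igfbp5*, *Igfbp6* and *Igfbp7*, higher in castrated tumors, and *Igfbp2*, lower, and none passed after adjustment. In that fit 1583 of all genes tested passed as higher (10.8%) and 1005 as lower (6.88%). With intact replicate 1 as the only intact sample, *Igf1* alone passed the unadjusted p and fold, and 5 of the 9 genes had turned their sign. Over all genes tested 977 passed as higher (6.69%) and 549 as lower (3.76%) there. In both of these fits the lone intact sample is assumed to vary like the castrated ones.

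**Figure D2:**
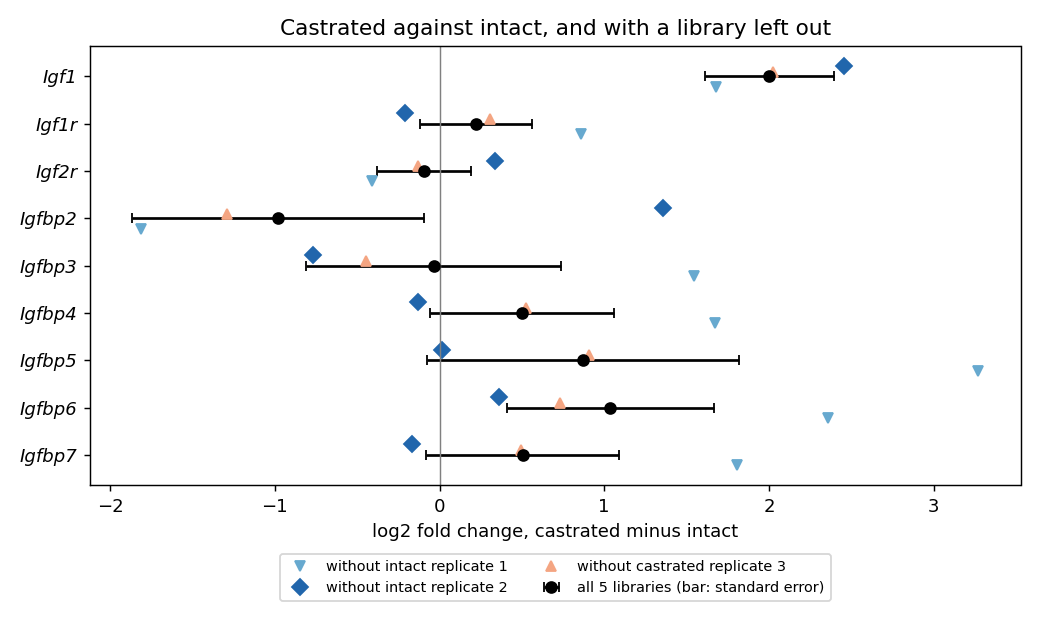
log2 fold change, castrated minus intact, of the 9 tested genes from all 5 libraries (black, bar for the standard error) and with 1 library left out (colored markers). *Igf1* lies between 1.68 and 2.46 in each of these fits, while *Igfbp2*, *Igfbp3*, *Igfbp4*, *Igfbp7*, *Igf1r* and *Igf2r* have markers on both sides of 0.

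Intact replicate 2 was the lowest of the 5 libraries for 6 of the 9 tested genes, *Igf1r* and *Igfbp3* to *Igfbp7*, and for 5 of the 6 binding proteins. Across all genes tested it was the lowest library for 27.5% and the highest for 31.3%. The ratio of intact replicate 1 to intact replicate 2 was 9.41 for *Igfbp5*, 4.92 for *Igfbp3*, 3.93 for *Igfbp6*, 3.88 for *Igfbp7* and 3.45 for *Igfbp4*. For *Igf1* it was 0.574, and for *Igfbp2* 0.11. The 10 genes together took 0.358%, 0.460%, 0.430%, 0.453% and 0.119% of all counts.

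Levels were compared between genes per length, in TPM. In castrated tumors the mean order was *Igfbp4* (1064 TPM), *Igfbp7* (952), *Igfbp5* (634), *Igfbp3* (448), *Igfbp6* (111), *Igf1* (67.9), *Igf2r* (54.6), *Igf1r* (29.7), *Igfbp2* (18.9) and *Igf2* (0.15). Neighbors in that order overlapped between samples except at 3 steps: *Igfbp3* above *Igfbp6*, *Igf2r* above *Igf1r*, and *Igfbp2* above *Igf2*. In intact tumors *Igf1* stood ninth of the genes at 15.0 TPM, below *Igf1r* (24.7) and *Igfbp2* (30.4), and only the step from *Igf1* to *Igf2* was free of overlap.

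The 6 binding proteins summed to 3070, 3209, 3407, 3916 and 731.2 TPM. Intact replicate 1 had the highest sum and intact replicate 2 by far the lowest, and the castrated samples lay between them in a narrow range. *Igfbp4* and *Igfbp7* made up most of the sum in all 5 libraries, with 39.7%, 29.9%, 29.8%, 31.4% and 36.6% for *Igfbp4* and 36.4%, 24.3%, 28.1%, 28.7% and 29.8% for *Igfbp7*. In castrated replicate 2 *Igfbp5*, at 27.6%, came above *Igfbp7*. *Igfbp2* was under 1% of the sum in each library but intact replicate 2, where it reached 7.25%. Per TPM of *Igf1* there were 62.8, 35.8 and 52.2 TPM of binding protein transcript in castrated tumors, and 302 and 43.0 in intact tumors. The groups overlapped in this ratio, as intact replicate 2 lay within the castrated range and intact replicate 1 far above it.

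**Figure D3:**
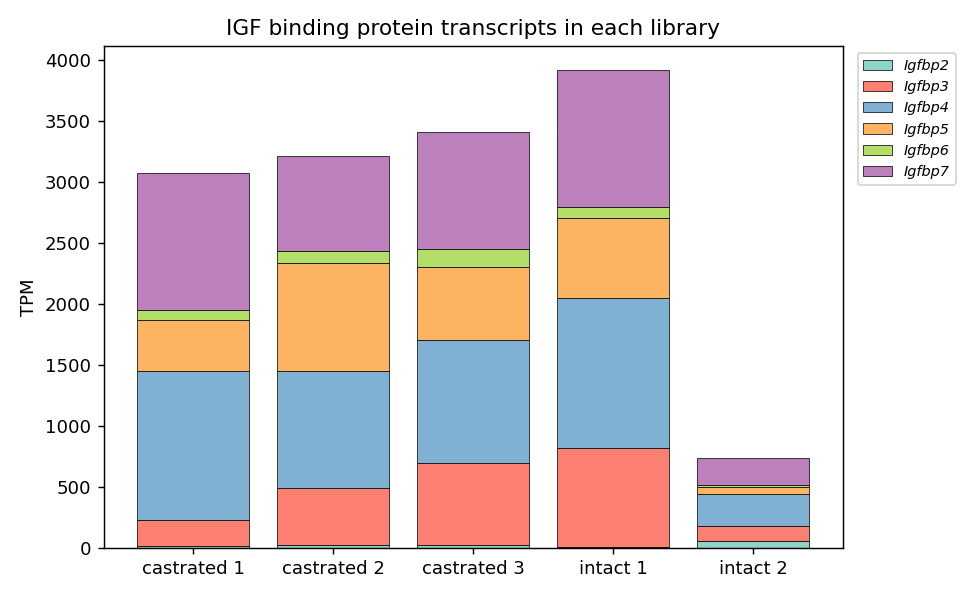
Stacked TPM of *Igfbp2* to *Igfbp7* in each library, with bars starting at 0. The stacks of the castrated samples and of intact replicate 1 reach 3070 to 3916 TPM, and that of intact replicate 2 reaches 731.2 TPM.

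The promoters of *Igfbp4*, *Igfbp7*, *Igfbp3* and *Igfbp6* are shown because these binding protein genes were all lowest in intact replicate 2. *Igfbp5* and *Igf1r* were lowest there too; the window of *Igfbp5* overlaps an annotated exon and is not printed, and *Igf1r* is a receptor. Each run is the 150 bases just upstream of the annotated start, in RefSeq's GRCm38.p6 (the mm10 assembly), 5′ to 3′ on the strand of the gene. Capitals mark matches, on either strand, to any of 4 motifs. These were the TATA box, searched as TATAAA, the GC box, searched as GGGCGG, and the CCAAT box, searched by the letters of its name. The last was TGTTCT, 1 arm of the sites bound by steroid receptors such as the androgen receptor.
Igfbp4 (chr11:99041094-99041243, plus strand): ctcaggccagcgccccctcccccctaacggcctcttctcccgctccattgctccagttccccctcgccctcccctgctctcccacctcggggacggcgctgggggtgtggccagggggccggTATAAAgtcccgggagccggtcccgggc
Igfbp7 (chr5:77408046-77408195, minus strand): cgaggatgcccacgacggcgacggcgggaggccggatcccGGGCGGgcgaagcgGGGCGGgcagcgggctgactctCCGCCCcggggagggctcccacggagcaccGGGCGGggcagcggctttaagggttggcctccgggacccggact
Igfbp3 (chr11:7213924-7214073, minus strand): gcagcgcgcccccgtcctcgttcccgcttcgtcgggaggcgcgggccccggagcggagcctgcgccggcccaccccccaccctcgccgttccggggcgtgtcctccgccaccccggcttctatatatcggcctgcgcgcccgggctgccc
Igfbp6 (chr15:102144036-102144185, plus strand): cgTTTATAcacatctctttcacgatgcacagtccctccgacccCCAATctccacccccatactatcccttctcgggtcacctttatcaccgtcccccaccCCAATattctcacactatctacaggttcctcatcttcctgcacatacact

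In these runs *Igfbp4* had a TATA box that began 28 bases before the start, *Igfbp7* had 4 GC boxes, and *Igfbp6* had 2 CCAAT boxes and 1 TATA box match on the opposite strand. *Igfbp3* had none of the motifs. None of the 4 held TGTTCT within 250 bases. The 250 bases upstream were 69.2%, 74.0%, 73.2% and 49.6% G or C in *Igfbp4*, *Igfbp7*, *Igfbp3* and *Igfbp6*, with 22, 26, 32 and 7 CpG dinucleotides, against medians of 52.4% and 6 over 32851 promoters. All 10 IGF axis genes matched the RefSeq table, with 14 promoter windows. Of the 14 windows 2 had the TATA box, 6 the GC box, 3 the CCAAT box, and 2, of *Igf2* and *Igfbp2*, the receptor motif. Over all promoter windows of the same length the shares were 12.4% for the TATA box, 32.7% for the GC box, 33.8% for the CCAAT box and 16.1% for the receptor motif. No single motif of the 4 was found in all of the 4 promoters printed. *Igf1r* had 2 GC boxes in its 150 bases, and *Igfbp5* had none of the motifs.

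*Igfbp4* and *Igfbp7*, on chromosomes 11 and 5, had the most similar profiles of all pairs in the axis. Likeness was measured as the root mean square difference of log2 CPM over the 5 samples, with each gene centred on its own mean, and for this pair it was 0.092. The next pair, *Igf1r* and *Igfbp4*, was at 0.342. *Igfbp2* and *Igfbp5* were the farthest pair at 2.25, although they are neighbors on chromosome 1, at 72824480-72852471 and 72858065-72874865 (mm10).

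Outside the axis, the gene most like *Igf1* among 14603 was *Clec4a2*, a C-type lectin receptor of myeloid cells, with a difference of 0.139 log2 units. *Clec4a2* was at 10.88, 26.88, 16.94, 3.26 and 5.604 CPM, so it was highest in castrated replicate 2 and lowest in intact replicate 1, as *Igf1* was. *Susd3* (0.161), *Cacna1a* (0.165), *Rab3il1* (0.168) and *Pdpn* (0.175) came next. For the other genes the nearest were *Nlrc3* to *Igf1r* (0.042), *Arid5b* to *Igf2r* (0.012), *Zfp791* to *Igfbp2* (0.088), *Slc4a4* to *Igfbp3* (0.128), *Pdgfrb* to *Igfbp4* (0.043), *Dusp18* to *Igfbp5* (0.171), *Ptgis* to *Igfbp6* (0.081) and *Pcdhga12* to *Igfbp7* (0.065). These are descriptions over 5 samples, with no test.

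The summed macrophage and smooth muscle markers, like *Igf1*, separated the castrated from the intact samples. The 6 macrophage markers summed to 822.9, 2199, 1113, 449.5 and 485.6 CPM, and all 6 had the castrated samples above without overlap, as 17.0% of all genes tested did. Their most abundant gene over the 5 libraries together was *Cd68* at 96.41, 635.5, 267.8, 53.09 and 62.8 CPM, although *C1qa* was above it in castrated replicate 1 and in both intact samples. The 6 smooth muscle markers, led by *Acta2* in the castrated samples and by *Tagln* in the intact ones, summed to 373, 667.9, 602.6, 196.9 and 137.1 CPM. Again 6 of 6 did not overlap, beside the same 17.0% of all genes tested. The 5 fibroblast markers summed to 3098, 4432, 6100, 2914 and 1642 CPM, a sum that also separated the groups, with the lowest castrated sample just above intact replicate 1, but the single genes were mixed. *Dcn*, *Lum* and *Pdgfra* had all castrated samples above both intact samples, with *Dcn* at 994.8, 2653, 3812, 485.4 and 493.2 CPM. The collagen genes *Col1a1* and *Col1a2* overlapped, with log2 fold changes of -0.36 and 0.01. The smooth muscle and fibroblast sums were lowest in intact replicate 2, as most binding proteins were. No gene of these lists passed the adjusted p in edgeR's quasi-likelihood test. Macrophage and smooth muscle sums were, like *Igf1*, highest in castrated replicate 2, and the part of these cell types in the *Igf1* difference was not tested. In bulk tissue, more cells of a type and more RNA per cell cannot be told apart.

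Endothelial markers summed to 393.6, 285.1, 328.4, 431 and 178.2 CPM, lowest in intact replicate 2. The gene with the highest sum over the 5 libraries, *Cdh5*, was at 75.8, 82.14, 61.27, 226.5 and 41.22 CPM. It owed that place to intact replicate 1 and was below *Pecam1* in castrated replicates 1 and 3 and in intact replicate 2. *Cdh5* had a log2 fold change of -0.87, while the other 5 of the 6 were higher in castrated tumors, and *Pecam1*, *Kdr* and *Tek* did not overlap. Adipocyte markers, led by *Fabp4*, summed to 53.27, 658.4, 604.8, 35.72 and 90.13 CPM and were high in castrated replicates 2 and 3. In castrated replicate 1 the sum lay below that of intact replicate 2. All 8 had a log2 fold change above 0, and 5 had the castrated samples above both intact ones, as 17.0% of all genes tested did. Some of the 5 separated only near the floor, with 3, 612, 727, 2 and 0 counts for *Plin1* and 2, 464, 404, 1 and 0 for *Retn*. T cell markers summed to 11.82, 43.71, 40.15, 2.902 and 32.14 CPM, and skeletal muscle markers to no more than 1.817 CPM. Neuroendocrine markers were low in level, at a sum of 17.45, 25.17, 29.56, 1.429 and 2.177 CPM, but like *Igf1* they were higher in castrated tumors. All 4 that were tested passed the unadjusted p and fold in edgeR's quasi-likelihood test without overlap. Over all genes tested, 7.66% passed as higher and 17.0% had the castrated samples above both intact ones. The 4 had a median log2 fold change of 3.99, with *Chga*, a granin, at 5.25. The part of these cell types in the IGF axis values was not tested.

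**Figure D4:**
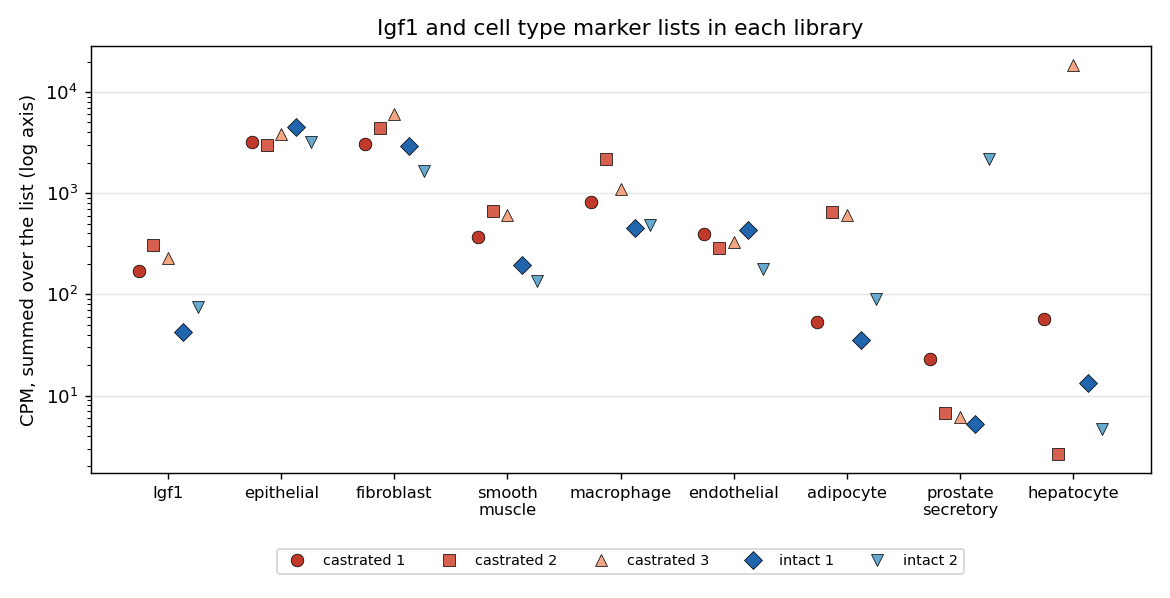
*Igf1* and 8 cell type marker lists in each library, as summed CPM on a log axis. *Igf1* and the macrophage, smooth muscle and fibroblast sums are higher in all 3 castrated samples than in both intact samples; prostate secretory markers stand out in intact replicate 2 (2157 CPM) and hepatocyte markers in castrated replicate 3 (18340 CPM).

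Liver is known as the main source of circulating IGF1, and castrated replicate 3 carried liver transcripts. Hepatocyte markers summed to 56.78, 2.672, 18340, 13.35 and 4.724 CPM. *Igf1* was not highest in that library, and its log2 fold change was 2.02 without it. The part of liver transcripts in the *Igf1* values was not tested. *Igfbp1*, a binding protein made chiefly by liver and outside the 10 genes, had 31, 5, 15047, 25 and 0 counts. Its log2 fold change was 8.75 (SE 4.30; adjusted p = 0.392 in edgeR's quasi-likelihood test) with castrated replicate 3 and 0.30 without it.

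*Igfals* codes for the acid-labile subunit, which joins IGF and IGFBP3 in the large circulating complex. It was at 2.921, 9.459, 8.544, 0.3126 and 0.4631 CPM, with all 3 castrated samples above both intact samples. The log2 fold change was 4.15 (SE 0.76; unadjusted p = 0.00241 and adjusted p = 0.289 in edgeR's quasi-likelihood test), and 3.97 without castrated replicate 3. Castrated replicate 2 had the most *Igfals* and the lowest hepatocyte sum, and the part of liver transcripts in the *Igfals* values was not tested. DESeq2 and the likelihood ratio test of edgeR gave *Igfals* adjusted p-values of 2.3e-05 and 0.00206. Among alternatives with replicates in both groups, the highest was 0.681, from edgeR's quasi-likelihood test with the replicate number as a block.

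Of the 7 other IGF and insulin family genes, 5 were tested, 4 were higher and 1 lower in castrated tumors, with a median log2 fold change of 1.86. In this list 2 of the 5 tested genes passed the unadjusted p and fold, *Igfals* and the orphan receptor *Insrr*, and both did not overlap. Over all genes tested, 7.66% passed as higher and 17.0% had the castrated samples above both intact ones. *Insrr* had 50, 24, 62, 7 and 17 counts and a log2 fold change of 1.86 (unadjusted p = 0.0466 in edgeR's quasi-likelihood test). With 1 library left out, the log2 fold change of *Insrr* ranged from 1.37 to 2.66, and its unadjusted p was 0.144 without castrated replicate 3, 0.158 without intact replicate 1, 0.0693 without castrated replicate 1 and 0.0582 without castrated replicate 2 in the same edgeR quasi-likelihood test. The insulin receptor *Insr* was at 126.1, 110.3, 107.1, 142.6 and 106.3 CPM, with overlapping groups. The insulin genes *Ins1* and *Ins2* had 0 counts in all 5 libraries.

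Of the 8 IGFBP proteases and their inhibitors, 2 were higher and 6 lower, none passed the unadjusted p and fold, and the median log2 fold change was -0.51. *Pappa*, the protease that cleaves IGFBP4, was at 9.353, 9.619, 14.9, 6.653 and 11.02 CPM. Its inhibitor *Stc1* was at 112.4, 16.46, 71.51, 312.9 and 61.55 CPM, highest in intact replicate 1. The log2 fold change of *Stc1* was -1.49 (SE 0.94; adjusted p = 0.496 in edgeR's quasi-likelihood test), and 0.14 without intact replicate 1.

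Of the 6 growth hormone axis genes, 2 were higher and 4 lower, with a median of -0.13. *Ghr*, the growth hormone receptor, was at 68.88, 74.71, 113.8, 33.35 and 49.05 CPM, with all castrated samples above both intact samples. Its log2 fold change was 1.06 (SE 0.32; unadjusted p = 0.0202 and adjusted p = 0.297 in edgeR's quasi-likelihood test). Without castrated replicate 3 the unadjusted p of *Ghr* was 0.0504, and without intact replicate 1 it was 0.0884, both in edgeR's quasi-likelihood test. *Jak2*, the kinase bound to this receptor, was at 107.5, 126.1, 109.6, 134.4 and 139.1 CPM, below both intact samples in each castrated one, with a log2 fold change of only -0.26. *Stat5a*, which acts after JAK2, was at 18.91, 36.61, 41.02, 11.52 and 181.2 CPM, highest in intact replicate 2 and lowest in intact replicate 1. Its log2 fold change was -1.58 (SE 1.02), and 1.48 without intact replicate 2.

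Of the 16 receptor adaptor and PI3K-AKT genes, 10 were higher and 6 lower, with a median of 0.31. *Grb10*, an adaptor that dampens insulin and IGF1 receptor signaling, was at 40.61, 28.43, 62.92, 21.08 and 13.15 CPM, without overlap. The log2 fold change was 1.36 (SE 0.43; unadjusted p = 0.0234 and adjusted p = 0.301 in edgeR's quasi-likelihood test). *Grb10* was the only gene of the list past the unadjusted p and fold, where 7.66% of all genes tested passed as higher. Without castrated replicate 3 the unadjusted p of *Grb10* was 0.0598, and without intact replicate 2 it was 0.106, in edgeR's quasi-likelihood test. *Grb2*, which links receptors to RAS, also had all castrated samples above, at 127.7, 197.5, 156.0, 117.0 and 86.79 CPM. The docking proteins *Irs1* (27.47, 51.68, 39.08, 42.33 and 88.6 CPM) and *Irs2* (32.4, 45.8, 52.77, 102.0 and 26.72 CPM) had opposite intact samples on top. Their log2 fold changes were -0.73 and -0.56, *Irs1* was at -0.10 without intact replicate 2, and *Irs2* was at 0.73 without intact replicate 1.

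A list of 6 genes held *H19* and *Igf2os* at the *Igf2* locus, *Airn* at the *Igf2r* locus, and the RNA-binding proteins *Igf2bp1*, *Igf2bp2* and *Igf2bp3*. Of these 6, 4 were tested and all 4 had a log2 fold change below 0. *H19*, the imprinted noncoding neighbor of *Igf2*, was at 3.164, 0.9619, 9.806, 3.617 and 47.66 CPM, with a log2 fold change of -2.46 (SE 1.28; adjusted p = 0.414 in edgeR's quasi-likelihood test), and 0.36 without intact replicate 2. *Airn*, the imprinted noncoding gene antisense to *Igf2r*, had a log2 fold change of -2.93 (SE 0.94; unadjusted p = 0.0244 and adjusted p = 0.301 in edgeR's quasi-likelihood test). Without intact replicate 2 the *Airn* value was -0.20, and without castrated replicate 1, 2 or 3 its unadjusted p was 0.0756, 0.0691 or 0.0582 in edgeR's quasi-likelihood test. *Igf2bp1*, an RNA-binding protein named for *Igf2* mRNA, had 2, 0, 1, 28 and 31 counts, so both intact libraries held nearly all of its reads. Its unadjusted p was 0.000565 and its adjusted p 0.289 in edgeR's quasi-likelihood test, and no fold is given against so few castrated counts. Its relative *Igf2bp3*, not tested, had 2, 15, 14, 1 and 1 counts, with the castrated samples above. *Igf2* itself, *H19* and *Airn* all had their highest value in intact replicate 2.

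**Figure D5:**
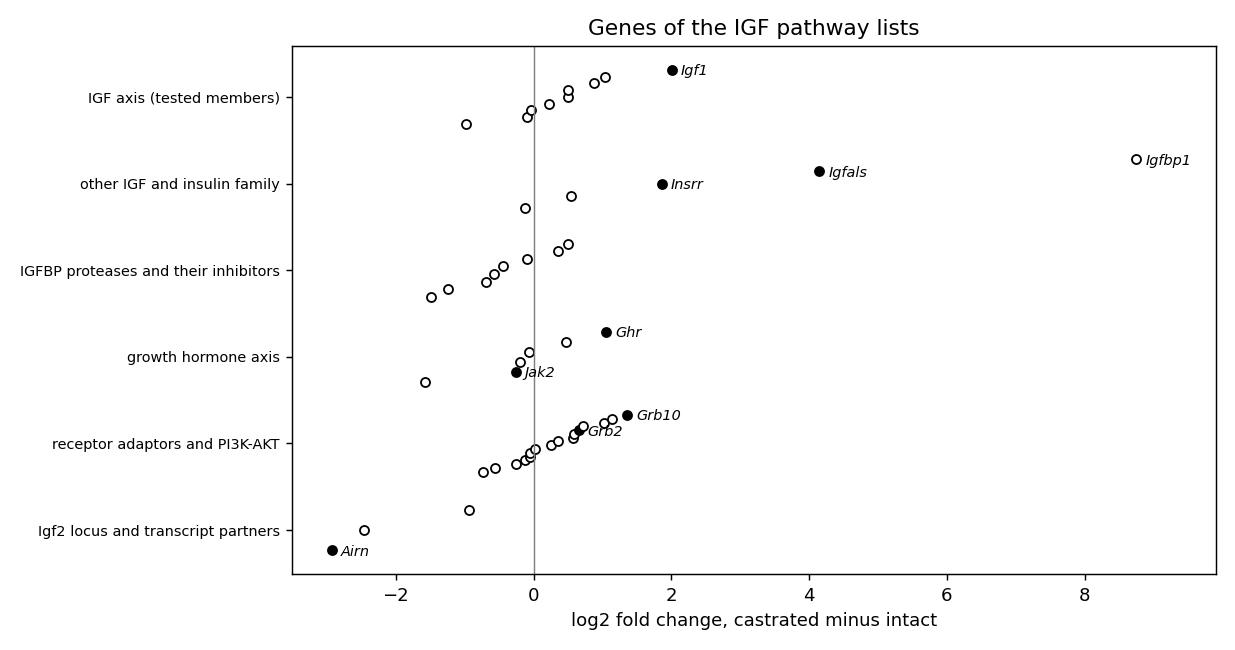
log2 fold change, castrated minus intact, of the tested genes of the IGF axis and of 5 related lists, with filled points where the castrated and intact samples do not overlap and height within a list used only to spread the points. Filled points are *Igf1*, *Igfals*, *Insrr*, *Ghr*, *Jak2*, *Grb10*, *Grb2* and *Airn*, none of which passed the adjusted p in edgeR's quasi-likelihood test; the open point at 8.75 is *Igfbp1*, and *Igf2bp1*, with almost no counts in castrated samples, is not drawn.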

How the data were processed

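Tumors of 3 castrated and 2 intact mice were sequenced as paired-end libraries depleted of ribosomal RNA. The authors used Trimmomatic 0.39 for trimming, STAR 2.7.9 for alignment to mm10 and HTSeq 2.0.2 for counting per gene, per the submitters' processing notes, and deposited raw counts without normalization. Gene lengths in kilobases came with the deposited table. Counts were analyzed with R 4.3.3 and edgeR 4.0.16 by the quasi-likelihood F-test with TMM normalization, on genes that exceeded a CPM of 1 in 2 or more samples, with Benjamini-Hochberg adjustment over all genes tested. Calls needed an adjusted p under 0.05 together with a log2 fold change over 1 in size. The study's methods give this filter and these thresholds, and name TPM as input where counts were used here. CPM used TMM-scaled library sizes (factors 0.945 to 1.039), TPM unscaled counts and lengths.

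Same-numbered samples are different animals, so a replicate block was an alternative. DESeq2 1.42.0, limma voom (limma 3.58.1), the likelihood ratio test, other scalings and filters, and leaving out each library were the others; the older quasi-likelihood fit and castrated replicate 1 alone were added after seeing the data. The procedure was also run on counts simulated from a common mean per gene with planted changes. That simulation did not model single libraries that stand apart as some do here. No 2 samples of a group held the same library (chi-square per gene 132.8 or more).

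The IGF axis genes, lists and tests were chosen with earlier results of these data known, and the hepatocyte list after its values were seen. Named were all 10 genes, genes of the lists, and by likeness the 5 nearest genes to *Igf1* and the nearest to each other tested member. Coordinates count from 1.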

Additional observations from a re-analysis of the deposited data

How the results depend on the processing

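Over 15 alternatives, the 9 tested IGF axis genes gave 135 log2 fold changes. Of these, 124 kept their direction and their side of the threshold, 9 changed sign and 2, both of *Igf1*, became calls. The number of genes called was 0 with edgeR's quasi-likelihood test (1596 at the unadjusted p), 989 with DESeq2, 369 with the likelihood ratio test, and 0 to 1 when 1 library was left out, where the 1 came without intact replicate 1. DESeq2 called 1 IGF axis gene and the likelihood ratio test 1, *Igf1* in both; limma voom called 0 genes. The number of genes past the unadjusted p and fold ranged from 898 to 2588 when 1 library was left out, and the IGF axis genes among them from 1 to 6. The median log2 fold change of the IGF axis genes was 0.749 with limma voom and ranged from 0.018 to 1.67 when 1 library was left out.

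Without intact replicate 2, the log2 fold changes with a turned sign were -0.21 for *Igf1r*, 0.34 for *Igf2r*, 1.36 for *Igfbp2*, -0.13 for *Igfbp4*, -0.16 for *Igfbp7*, 0.36 for *H19* and 1.48 for *Stat5a*. Without intact replicate 1 they were 1.55 for *Igfbp3*, 0.13 for *Insr*, 0.14 for *Stc1* and 0.73 for *Irs2*, and without castrated replicate 1 they were 0.0037 for *Igf2r* and 0.29 for *Igfbp3*. With limma voom *Igfbp3* was at 0.27. Leaving out 1 library at a time gave ranges of -0.21 to 0.86 for *Igf1r*, -0.41 to 0.34 for *Igf2r*, -1.81 to 1.36 for *Igfbp2*, -0.77 to 1.55 for *Igfbp3*, -0.13 to 1.67 for *Igfbp4*, -0.16 to 1.81 for *Igfbp7*, -3.62 to 0.36 for *H19*, -0.32 to 0.13 for *Insr*, -2.23 to 0.14 for *Stc1*, -2.48 to 1.48 for *Stat5a* and -1.22 to 0.73 for *Irs2*. *Igfals* and *Airn* (adjusted p = 0.0333) also became calls with DESeq2, and *Igfals* with the likelihood ratio test. The adjusted p of *Airn* reached 0.748 in edgeR's quasi-likelihood test with the replicate number as a block. The cause of these differences was not tested.

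With the replicate number as a block, 975 genes passed the unadjusted p and fold, the median of the IGF axis genes was 0.775, and no gene was called. The block changed no call of an IGF axis gene. After each gene was centred on its group mean, the replicate 1 samples correlated at 0.149 and the replicate 2 samples at -0.045. With only 2 intact samples, their centred values mirror each other, so these correlations cannot show whether the numbers pair the samples.

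The IGF axis genes other than *Igf2* had 99 to 40828 counts per library. *Igf2*, at 3 to 26 counts, was below the filter, and its groups overlapped. Replicates are separate mice, and castrated replicate 1 alone against both intact samples gave *Igf1* a log2 fold change of 1.51. Whether the tissue pieces held liver or normal gland was not tested.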
